A study of Rattus norvegicus with 6 samples.

Results

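Pyruvate dehydrogenase and the enzymes that switch it were followed through 10 genes of RBL-2H3, a rat basophilic leukemia line used as a stand-in for mast cells, among 22601 genes in the deposited table. The genes were taken by symbol, and each had 1 row. They were the kinase genes Pdk1, Pdk2, Pdk3 and Pdk4, the phosphatase genes Pdp1 and Pdp2, and the subunit genes Pdha1, Pdhb, Dlat and Pdhx. The study asked how a PPARγ agonist alters expression in this line. It set 3 libraries from cells given PIO, the agonist, at 10 µM for 6 h against 3 control libraries, all from wild-type cells of the same line. The labels give neither a vehicle nor a time for the controls, and the effects of these and of PIO cannot be told apart. They also do not say whether replicates were separate cultures, so the p-values below reflect the spread among the libraries alone, which may be technical. In bulk libraries, fewer cells that express a gene and less of its RNA per cell cannot be told apart either.

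Pyruvate dehydrogenase is the mitochondrial complex that turns pyruvate, the end product of glycolysis, into acetyl-CoA for the citric acid cycle and for lipid synthesis. Pdha1 and Pdhb encode the alpha and beta chains of its decarboxylase, Dlat encodes the acetyltransferase core, and Pdhx encodes the protein that binds the dihydrolipoamide dehydrogenase to that core. The kinases phosphorylate the alpha chain and turn the complex off, and the phosphatases remove the phosphate and turn it on. Pdk4 is a textbook PPAR target in muscle and liver, where it spares glucose while fat is burned. Pdk1 is best known as a gene that hypoxia induces.

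The promoters of the kinase gene with the highest measured level, Pdk1, and of Pdk4, the known PPAR target, are shown side by side. Pdk4 is listed at 0 here, which need not mean that it is silent. They cover 250 bases before to 50 after the annotated start, on the strand of the gene, from RefSeq on build GRCr8. Pdk1 lies on the plus strand at chr3:77113264-77113563, and Pdk4 on the minus strand at chr4:34568280-34568579. Capitals mark ACGTG, a form of the core of the hypoxia response element, on either strand, and other forms were not searched.
Pdk1: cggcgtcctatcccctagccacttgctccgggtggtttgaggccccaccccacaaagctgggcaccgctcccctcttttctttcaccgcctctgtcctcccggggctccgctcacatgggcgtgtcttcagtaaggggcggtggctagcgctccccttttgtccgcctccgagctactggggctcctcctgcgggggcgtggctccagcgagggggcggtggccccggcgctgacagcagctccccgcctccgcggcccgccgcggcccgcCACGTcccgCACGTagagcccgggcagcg
Pdk4: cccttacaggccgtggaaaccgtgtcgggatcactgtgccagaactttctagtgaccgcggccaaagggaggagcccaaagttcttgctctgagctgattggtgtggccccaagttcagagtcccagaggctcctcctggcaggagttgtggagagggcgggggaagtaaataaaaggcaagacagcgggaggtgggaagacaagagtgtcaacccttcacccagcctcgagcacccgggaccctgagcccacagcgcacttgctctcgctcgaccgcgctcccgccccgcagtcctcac
The Pdk1 window holds 2 matches to ACGTG, both on the opposite strand and both after the annotated start, and the Pdk4 window holds none. ACGTG is not particular to Pdk1: counted over both strands, Pdk2 holds 2 and Pdk3 holds 1. Among the subunit genes Pdhb holds 4, Dlat holds 1, and Pdha1 and Pdhx hold none. The matches in Pdk2 and Pdhb overlap as CACGTG, which reads the same on both strands and so counts 2 times. They mark 1 stretch in Pdk2 and 2 stretches in Pdhb, whereas the 2 matches in Pdk1 are separate stretches. Of 33469 promoter windows of this length, 19.3% hold ACGTG. Neither the Pdk1 nor the Pdk4 window holds AGGTCA, the core motif of nuclear receptors, on either strand, and it occurs in 16.2% of all windows. Pdhb and Dlat hold 1 AGGTCA each, and Pdk2, Pdk3, Pdha1 and Pdhx hold none. Pdk1 has 30 CpG dinucleotides and Pdk4 has 16, while Pdk2 has 24 and Pdk3 has 34, against a median of 7 over all windows. The table held promoters for 8 of the 10 genes, and not for Pdp1 and Pdp2. These are descriptions of letters in a window, and the start that RBL-2H3 cells use was not measured.

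Levels are given in FPKM, which divides reads by gene length and library size and so allows genes to be set beside each other. Over all 6 libraries the order of mean levels was Pdhb, Pdha1, Pdk1, Dlat, Pdk3, Pdhx, Pdp2, Pdk2 and Pdp1, with Pdk4 listed at 0. The decarboxylase genes led at 43.3 FPKM for Pdhb and 39.9 FPKM for Pdha1, above 79.9% and 78.4% of the 10410 genes tested. Pdhb was above Pdha1 in 6 of 6 libraries, although their ranges overlapped. Dlat at 21.3 FPKM and Pdk3 at 21.0 FPKM could not be ordered, since Dlat was above Pdk3 in only 3 of 6 libraries. Pdk3 and Pdhx (18.7 FPKM) had overlapping ranges, though Pdk3 was above in 6 of 6. The ranges of Pdha1 and Pdk1, of Pdk1 and Dlat, of Pdhx and Pdp2, and of Pdk2 and Pdp1 did not touch. These are levels of mRNA, and neither protein nor phosphorylation was measured.

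**Figure D1:**
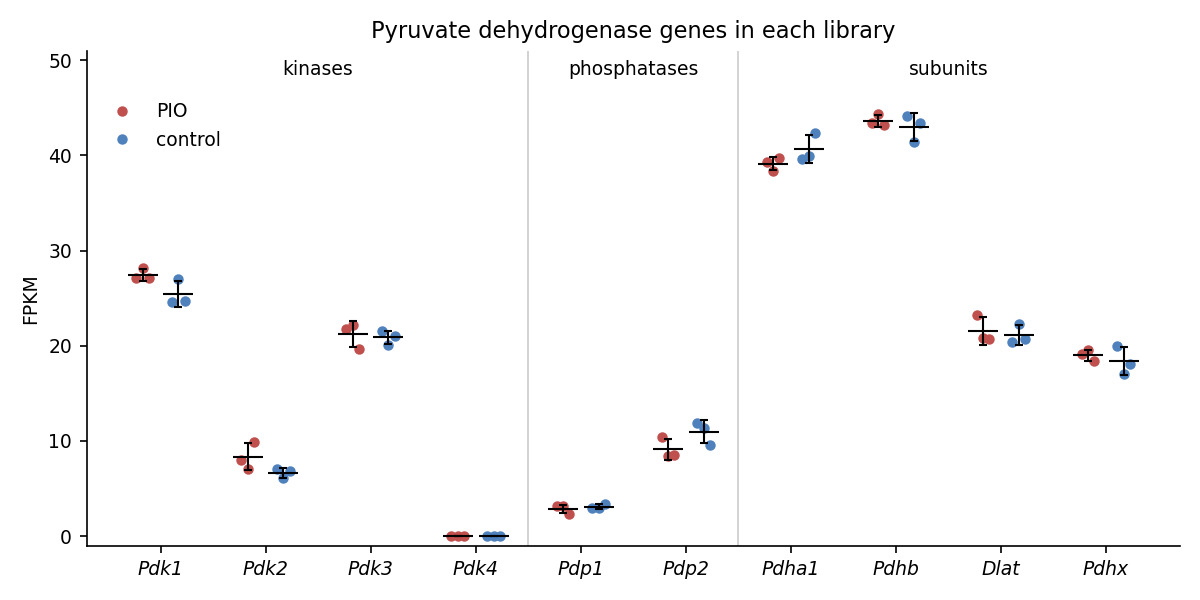
FPKM of the 10 genes in each library, with PIO in red and control in blue. Points are libraries, and bars give the mean and SD of 3 libraries. Pdk2 and Pdk1 are the genes in which every red point lies above every blue one, and Pdk4 sits at 0 throughout.

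None of the 9 genes that could be tested passed the test of PIO against control, in which 0.0384% of all genes tested, that is 4 genes, were called. The largest differences were a Pdk2 level higher with PIO and a Pdp2 level lower with PIO, and the subunit genes had log2 fold changes between -0.05 and 0.05. Pdk4 could not be tested.

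Pdk1 (GeneID 116551) stood at 27.1, 28.2 and 27.1 FPKM in PIO libraries 1 to 3, against 24.6, 27.0 and 24.7 FPKM in control libraries 1 to 3. The groups did not overlap, but control library 2 at 27.02 FPKM came close to the lowest PIO library, library 3 at 27.09 FPKM. Their summed FPKM over all genes was 496066 and 515593, so scaling to a common total would put control library 2 above PIO library 3. Behind these values were 1949, 2068 and 1953 reads in the PIO libraries and 1896, 1951 and 1872 reads in the control libraries. On log2(FPKM + 0.5), the log2 fold change of Pdk1 came to 0.11 (SE 0.05, limma adjusted p = 0.413, Benjamini-Hochberg over all genes tested), with a 95% interval of -0.0037 to 0.22.

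Pdk2 (GeneID 81530), the kinase gene that most tissues express, had 8.04, 7.08 and 9.90 FPKM in PIO libraries 1 to 3 and 7.03, 6.10 and 6.83 FPKM in control libraries 1 to 3. Every PIO library was above every control library, by a narrow margin in PIO library 2 and by a wide one in PIO library 3. Summed FPKM over all genes was 512046 in PIO library 2 and 506888 in control library 1. Scaling to a common total would therefore put control library 1 above PIO library 2. The reads numbered 243, 218 and 300 with PIO and 228, 185 and 217 in control. The spread of Pdk2 among the PIO libraries, a coefficient of variation of 17.2%, was larger than the 6.28% that counting alone gives, whereas the controls had 7.35% against 6.90% from counting. Its log2 fold change was 0.30 (SE 0.11, limma adjusted p = 0.375), with a 95% interval of 0.034 to 0.56. Without PIO library 3 it was 0.17, and without PIO library 2 it was 0.40, and neither passed the threshold.

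Pdk3 (GeneID 296849) encodes the kinase isoform known for its high level in testis. It was at 21.8, 22.2 and 19.7 FPKM in PIO libraries 1 to 3 and at 21.5, 20.1 and 21.0 FPKM in control libraries 1 to 3. The groups overlapped, and PIO library 3, the highest for Pdk2, was the lowest of all for Pdk3. The log2 fold change was 0.02 (SE 0.06, limma adjusted p = 0.891), with a 95% interval of -0.11 to 0.15.

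Pdk4 (GeneID 89813) was listed at 0 in all 3 PIO libraries and all 3 control libraries, so no fold could be formed. Such a 0 need not mean that a gene is silent, because Polr2h, an RNA polymerase subunit gene that every cell uses, was also listed at 0 in all 6 libraries. Cpt1a, the PPAR target that brings fatty acids into mitochondria, rose with PIO, to 12.7, 12.3 and 12.6 FPKM in PIO libraries 1 to 3 against 5.90, 6.49 and 5.76 FPKM in control libraries 1 to 3 (limma adjusted p = 0.00159). Cpt1a had the smallest p of all genes tested. Of 8 genes listed as a check on PPAR action, 6 were tested and all 6 had higher means with PIO. Over all 10410 genes tested, 5618 had a log2 fold change above 0. Of the 6 genes, 2 rose, Cpt1a and Hmox1, and 4 did not pass, where 0.0384% of all genes tested were called. The list was drawn up with earlier results of these data known, so it is not an independent check. Fabp4, also on that list, was at 0 in all 6 libraries. Angptl4, likewise on the list and not tested, had 0 reads in each PIO library and 1 read in each control library, too few to give a direction.

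Both phosphatase genes were below Pdk1 and Pdk3 in every library. Pdp1 (GeneID 54705), which encodes the isoform that calcium activates, had 3.12, 3.13 and 2.37 FPKM in PIO libraries 1 to 3 and 2.95, 2.96 and 3.36 FPKM in control libraries 1 to 3. The groups overlapped, and PIO library 3 was the lowest. With 96 to 143 reads per library Pdp1 had the fewest reads of the genes above 0, and its log2 fold change of -0.10 (SE 0.11, limma adjusted p = 0.735) had a 95% interval of -0.35 to 0.16.

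Pdp2 (GeneID 246311), which encodes the isoform that does not need calcium, had 10.4, 8.46 and 8.51 FPKM in PIO libraries 1 to 3 and 11.9, 11.4 and 9.61 FPKM in control libraries 1 to 3. The groups overlapped, because PIO library 1 was above control library 3. The reads were 322, 267 and 264 with PIO and 395, 354 and 313 in control. The log2 fold change was -0.25 (SE 0.10, limma adjusted p = 0.379), with a 95% interval of -0.49 to -0.019. It lay between -0.35 and -0.19 when any 1 library was left out.

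The 4 subunit genes gave overlapping groups throughout. Pdha1 (GeneID 29554), the chain that the kinases phosphorylate, had 39.3, 38.4 and 39.7 FPKM in PIO libraries 1 to 3 and 39.6, 40.0 and 42.4 FPKM in control libraries 1 to 3. Pdhb (GeneID 289950) had 43.4, 44.3 and 43.2 FPKM with PIO and 44.2, 41.4 and 43.4 FPKM in control. Dlat (GeneID 81654) had 23.2, 20.8 and 20.7 FPKM with PIO and 20.4, 22.3 and 20.7 FPKM in control. No library was the highest or the lowest in all of these genes. Pdhx (GeneID 311254) had 19.2, 19.5 and 18.4 FPKM with PIO and 20.0, 17.1 and 18.1 FPKM in control. The log2 fold changes were -0.05 (SE 0.04) for Pdha1, 0.02 (SE 0.04) for Pdhb, 0.03 (SE 0.06) for Dlat and 0.05 (SE 0.06) for Pdhx, with limma adjusted p between 0.593 and 0.875. The 95% intervals, on the fold scale, ran from 0.902 to 1.03 for Pdha1 and from 0.953 to 1.08 for Pdhb. The signs of Pdk3, Pdhb and Dlat turned under scaling to a common total, and those of Pdhx and Pdp1 when 1 library was left out (control library 2 and PIO library 3), so no direction is drawn for them.

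**Figure D2:**
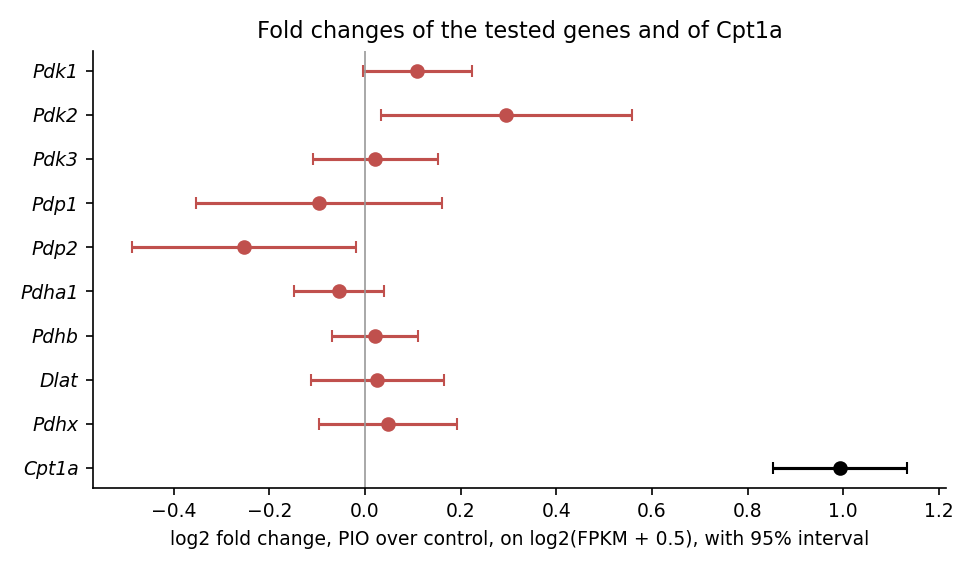
Log2 fold changes of PIO over control with 95% intervals for the 9 genes that could be tested, in red, and for Cpt1a, in black. The intervals of Pdk2 and Pdp2 lie on opposite sides of 0 before adjustment over all genes, and all 9 lie below the 0.99 of Cpt1a.

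Of the 10 genes, 9 passed the filter of a mean of at least 0.5 FPKM and 0 passed the test. By limma-voom on the reads, 7 genes were called (0.0672%), again none of the 9. At an unadjusted p under 0.05 stood Pdk2 (0.0314) and Pdp2 (0.0374), 2 of the 9, against 12.5% of all genes tested. The groups did not overlap for 2 of the 9, Pdk1 and Pdk2, both higher with PIO, against 10.5% of all genes in that direction and 18.5% in either. Both separations hinge on narrow margins in FPKM that scaling to a common total would reverse. With so few genes these shares say little about the set. The 9 had a median log2 fold change of 0.02, with 6 higher and 3 lower, beside 0.0094 over all 10410 genes. A p that misses the threshold does not show equal levels, and the intervals give what remains possible: a fold of up to 1.47 for Pdk2 and down to 0.713 for Pdp2.

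Isoform use was described by summing FPKM within each library. Pdk1 made up 47.6%, 49.1% and 47.8% of the summed kinase FPKM in PIO libraries 1 to 3, against 46.3%, 50.8% and 47.0% in control libraries 1 to 3. Pdk3 made up 37.2% ± 2.16 with PIO and 39.4% ± 1.48 in control (SD, n = 3 each). Pdk2 made up 14.6% ± 2.62 with PIO and 12.6% ± 0.957 in control (SD, n = 3 each). For each of the 3 isoforms the shares of the groups overlapped. PIO library 3 weighed on these shares: without it the difference of PIO minus control was 0.659 in place of 2.08 percentage points for Pdk2, and -0.967 in place of -2.21 for Pdk3. For Pdk1 the difference was 0.133 points and ran from -0.753 to 1.52 when 1 library was left out. Pdk1 also has the longest counted length of the 3, 5119 bases, and in reads not divided by length it made up 65.5% ± 0.609 with PIO and 65.2% ± 2.16 in control (SD, n = 3 each). Pdk1 and Pdk3 held most of the summed FPKM of Pdk1, Pdk2 and Pdk3 in every library of both groups. Pdk4 enters these shares as 0, and a level that the table missed would lower all of them. Between the phosphatases, Pdp2 held 76.0% ± 2.72 of the sum with PIO and 77.9% ± 3.30 in control (SD, n = 3 each).

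The summed kinase FPKM was 56.9, 57.5 and 56.7 in PIO libraries 1 to 3 and 53.1, 53.2 and 52.6 in control libraries 1 to 3. The sums did not overlap, although Pdk1, Pdk2 and Pdk3 each varied more within a group than their sum did. The SD of the sum, 0.417 FPKM with PIO and 0.305 FPKM in control, was below what counting alone gives for Pdk1. With 3 libraries per group, so small a spread is not taken as a trait of the sum. Set against the mean of Pdha1 and Pdhb, the kinase sum was 1.38, 1.39 and 1.37 with PIO and 1.27, 1.31 and 1.23 in control. The summed phosphatase FPKM was 13.5, 11.6 and 10.9 with PIO and 14.8, 14.4 and 13.0 in control, with overlap. Phosphatase over kinase was 0.237, 0.202 and 0.192 with PIO and 0.279, 0.270 and 0.247 in control, so each PIO library was below each control library. Pdk2 over Pdp2, a ratio chosen after its values were seen, was 0.773, 0.836 and 1.16 with PIO and 0.591, 0.535 and 0.710 in control. PIO library 3 was the only one in which Pdk2 stood above Pdp2. These sums and ratios rest on genes none of which passed the test, they were not tested, and no share of all genes can be set beside them.

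**Figure D3:**
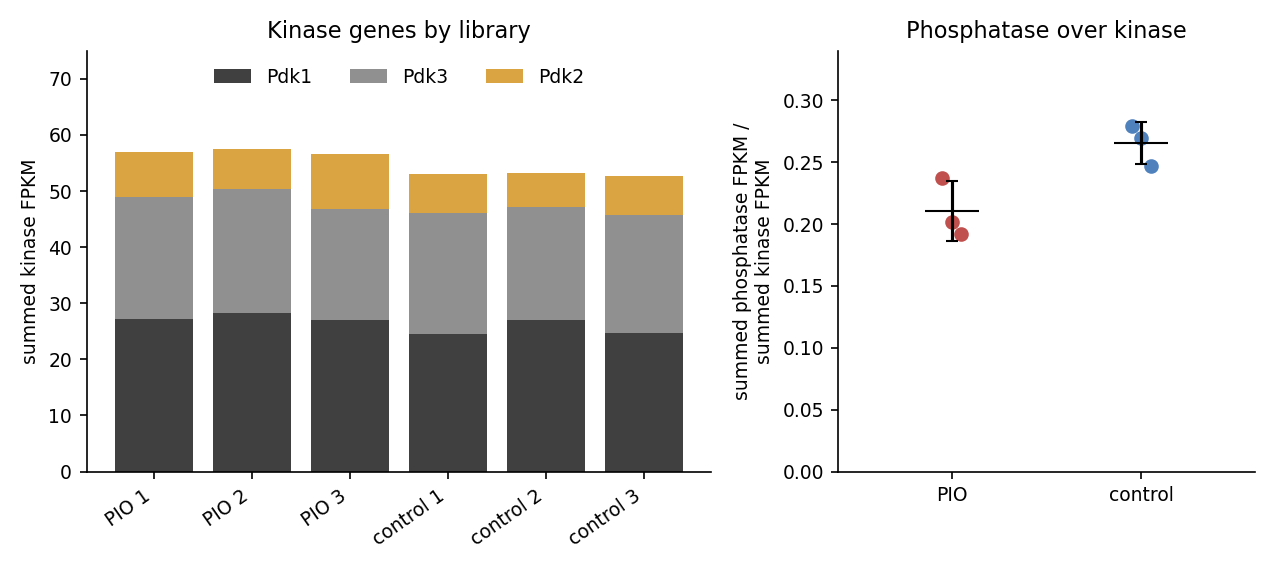
Left, summed FPKM of the kinase genes in each library, split into Pdk1, Pdk3 and Pdk2, with Pdk4 at 0. Right, summed phosphatase FPKM over summed kinase FPKM, with the mean and SD of 3 libraries: PIO lies between 0.192 and 0.237, and control between 0.247 and 0.279.

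Other genes of the pyruvate route gave no call. Of 22 genes, 18 were tested, 0 rose, 0 fell and 18 did not pass, with a median log2 fold change of -0.012 beside 0.0094 over all genes tested. Dld, the dihydrolipoamide dehydrogenase shared with the sister complexes, had 37.8, 36.7 and 35.2 FPKM with PIO and 38.9, 38.4 and 37.9 FPKM in control (limma adjusted p = 0.503). Pdpr, the regulatory subunit of the phosphatase, had 10.3, 8.33 and 8.55 FPKM with PIO and 10.0, 10.8 and 9.94 FPKM in control (log2 fold change -0.18, limma adjusted p = 0.426). Among the PIO libraries Pdpr was highest in library 1 and lowest in library 2, as Pdp2 was, though Pdp2 hardly differed between libraries 2 and 3 (8.46 and 8.51 FPKM). Among the control libraries the 2 genes did not match: Pdpr was highest in library 2 and Pdp2 in library 1. Lias, the lipoic acid synthase that makes the cofactor of Dlat, differed by -0.15 on the log2 scale (limma adjusted p = 0.443). Acly, which turns citrate back into acetyl-CoA in the cytosol, had the smallest p of the list (-0.13, limma adjusted p = 0.304).

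The entry of pyruvate and its other fates were measured beside the complex. Mpc1 and Mpc2 encode the mitochondrial pyruvate carrier. Mpc1 stood at 42.9 ± 2.56 FPKM with PIO and 43.4 ± 1.78 FPKM in control, and Mpc2 at 26.9 ± 1.65 FPKM with PIO and 27.0 ± 1.36 FPKM in control (SD, n = 3 each). Ldha, which reduces pyruvate to lactate, reached 1130 ± 14.2 FPKM with PIO and 1116 ± 67.4 FPKM in control (SD, n = 3 each), far above every gene of the complex. Pc, the carboxylase that turns pyruvate into oxaloacetate, was at 16.2 ± 0.769 FPKM with PIO and 16.6 ± 0.413 FPKM in control (SD, n = 3 each). Pdha2, the testis form of the alpha chain, had 0.0460 FPKM in PIO library 1 and was listed at 0 in the other 5 libraries. The sources used here do not state how reads shared by Pdha1 and such a close copy were counted, so both levels are uncertain to that extent.

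The sister complexes, which oxidise 2-oxoglutarate and the branched-chain keto acids, gave no call either. Of 10 genes, 8 were tested, 0 rose and 0 fell, with a median log2 fold change of -3.8e-04. Bckdk, the kinase of the branched-chain complex and a relative of the Pdk genes, had 48.3 ± 2.33 FPKM with PIO and 48.3 ± 0.995 FPKM in control (SD, n = 3 each). Its level was above that of Pdk1. The smallest p belonged to Dbt, the branched-chain counterpart of Dlat (log2 fold change -0.17, limma adjusted p = 0.341), followed by Bckdhb, the counterpart of Pdhb (0.10, limma adjusted p = 0.419), Gcsh, the lipoyl carrier of the glycine cleavage system, and Ppm1k, the phosphatase of the branched-chain complex.

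Known regulators of the kinase genes were also listed. Of 13 genes, 9 were tested, 0 rose, 0 fell and 9 did not pass, with 2 higher and 7 lower. Their median log2 fold change was -0.13, beside 0.0094 over all genes tested. Hif1a, the hypoxia factor that acts on Pdk1, had 36.0, 31.5 and 31.3 FPKM in PIO libraries 1 to 3 and 39.4, 40.9 and 41.1 FPKM in control libraries 1 to 3 (log2 fold change -0.30, limma adjusted p = 0.257). All PIO libraries were below all control libraries for Hif1a. For Pdk1 all PIO libraries were above all control libraries in FPKM, by a margin that depends on the scaling. Neither gene passed the test. A link between the levels of Hif1a and Pdk1 was not tested. Rxra, the partner receptor of the PPARs, differed by -0.41 on the log2 scale (limma adjusted p = 0.290). Rxra had few reads, 17, 17 and 15 in PIO libraries 1 to 3 and 25, 26 and 26 in control libraries 1 to 3. Its coefficients of variation, 6.76% with PIO and 5.31% in control, were below the 24.7% and 19.7% that counting alone gives. The small spread of Rxra is therefore not relied on. Nr3c1, the glucocorticoid receptor, differed by -0.19 (limma adjusted p = 0.340), and Esrra, an orphan receptor that acts on Pdk4, by 0.14 (limma adjusted p = 0.331). The groups did not overlap for 4 of the 9 on the lower side, Hif1a, Rxra, Nr3c1 and the transcription factor gene Myc, against 8.09% of all genes tested, and for 1 of the 9 on the higher side, Esrra, against 10.5%. So few genes, listed with earlier results of these data known, say little as a set. Ppard was at 6.94 FPKM with PIO and 6.59 FPKM in control, while Pparg and Ppara had at most 1 read in any library.

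**Figure D4:**
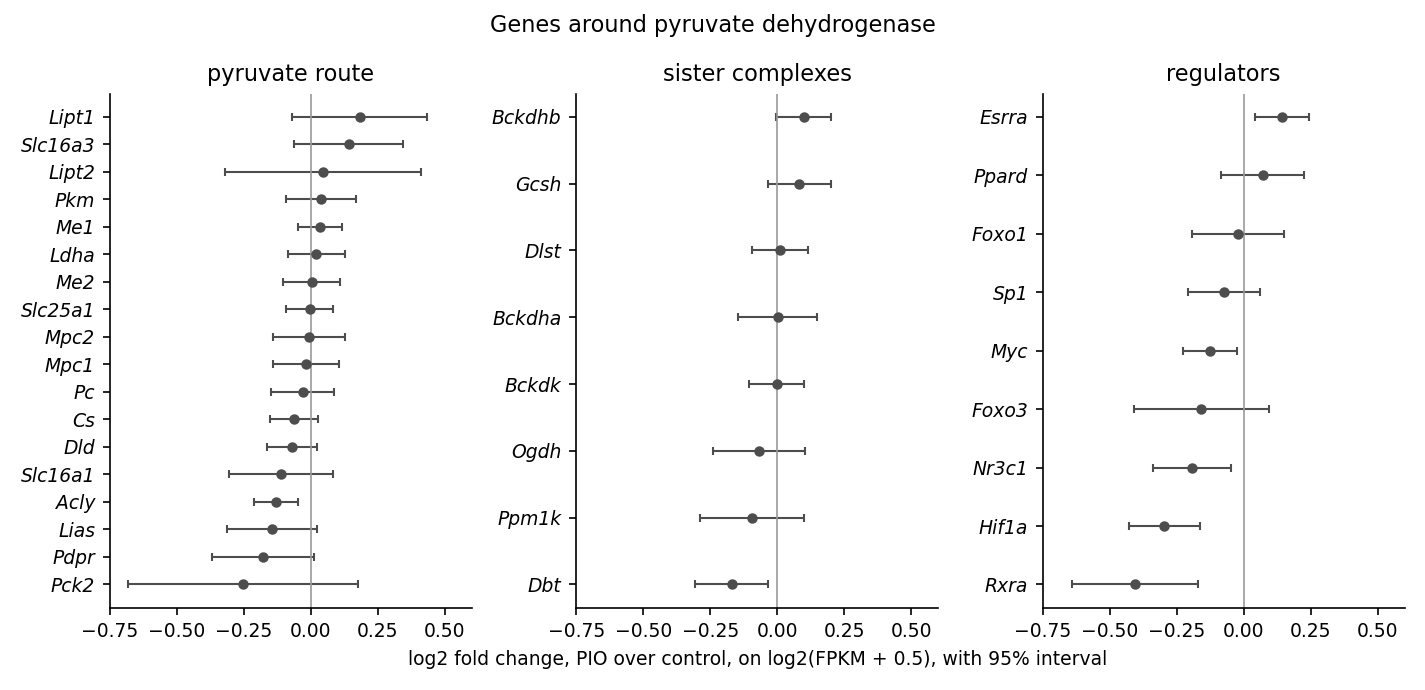
Log2 fold changes of PIO over control with 95% intervals for the tested genes of the pyruvate route (18), the sister complexes (8) and the regulators of the kinase genes (9). None passed the adjusted threshold, and Hif1a and Rxra lie farthest below 0 among the regulators. Rxra rests on 15 to 26 reads per library.

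Among the other 10409 genes tested, those with a pattern most like Pdk1 over the 6 libraries were Oard1 (Pearson r = 0.995 on the log2(FPKM + 0.5) scale), LOC100911515, annotated as similar to triosephosphate isomerase (r = 0.990), and Atp6v1c1 (r = 0.981). All shared the high values of Pdk1 in PIO library 2 and control library 2. The 6 points share library depth, 23 genes reached an r of at least 0.95, and the likeness is a description.

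The library totals lay between 14048202 and 15084729 reads, and the log2 profiles of any 2 libraries had a Pearson r, across genes, between 0.992 and 0.996. Of 14 genes fixed as markers of mast cells and basophils, 13 were above the filter and Tpsab1 was listed at 0. They summed to 4656 to 4794 FPKM with PIO and 4632 to 4839 FPKM in control, and none passed the test. The groups did not overlap for 3 of the 13, all lower with PIO: Rab27b (log2 fold change -0.47, limma adjusted p = 0.212), Mitf (-0.21, adjusted p = 0.270) and Ms4a2 (-0.06, adjusted p = 0.447). Over all genes tested, 8.09% did not overlap on the lower side and 18.5% in either direction. So few genes say little as a set. The part of Rab27b, Mitf and Ms4a2 in the results above was not tested. The markers of B cells summed to 0.374 to 0.653 FPKM with PIO and 0.433 to 0.572 FPKM in control, and those of macrophages to 1.77 to 2.09 FPKM with PIO and 1.69 to 1.98 FPKM in control. The fibroblast and adipocyte markers summed to 4.72 to 4.99 FPKM with PIO and 5.12 to 5.61 FPKM in control, nearly all of it Col3a1. The markers of T and NK cells summed to 329 to 371 FPKM with PIO and 310 to 335 FPKM in control, nearly all of it Nkg7, while Cd3d, Cd8a and Gzmk were listed at 0.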

How the data were processed

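Expression was measured by RNA-seq of 6 RBL-2H3 libraries made with a stranded mRNA kit, per the labels' protocols. The authors deposited 1 FPKM value for each gene in each library. The submitters' processing notes name HISAT2 2.2.1.0, BWA 0.7.5a, HTSeq, Cufflinks, DESeq, SAMtools 1.3.1, Trimmomatic 0.36 and FastQC 0.11.5, with no roles given. The same notes name a human build, GRCh38, although the genes are those of the rat, so the build behind the FPKM is unclear and promoters were matched by gene identifier.

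FPKM values resolved into whole reads (tolerance 1e-04 of a read, or 3e-09 of the reads where that is more) and whole gene lengths (tolerance 0.02 bases, widened with any multiple) for 15429 genes above 0, of which 15274 needed no multiple of the smallest read numbers, and the reads summed to 99.5% of each library's total. Counts of reads carry counting error only as far as they are independent molecules. Genes that averaged 0.5 FPKM or more were tested on log2(FPKM + 0.5), which understates the change of low genes, with limma 3.58.1 in R 4.3.3: a design of group alone, with a variance trend, two-sided tests and a threshold of 0.05 after Benjamini-Hochberg adjustment over all genes tested. The code was tested on simulated data for PIO against control over 10418 genes. It recovered 86% of genes changed 1.5-fold and 98.99% of those changed 2-fold. There were 15 false calls beside these 86 and 98 true ones, a share above the threshold of 0.05. Every simulated gene had the same dispersion, the median of genes with many reads, so genes that vary more were simulated as too steady. These rates are therefore not the power of the test on the real libraries. Tables and figures used Python 3.11.15, numpy 2.4.6, pandas 2.3.3 and matplotlib 3.10.9.

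The genes and lists were chosen with earlier results of these data known. Text names all 10 genes, up to 4 genes per list with the smallest p and a fixed set of others. The other settings tried were no filter, a minimum mean of 1 FPKM, pseudocounts of 0.1 and 1, TPM and median-of-ratios scaling, a block for replicate number, leaving out each library, limma-voom on the recovered reads, and sums of reads not divided by length.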

Additional observations from a re-analysis of the deposited data

How the results depend on the processing

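None of the 9 tested genes passed under any of the 14 alternatives, with adjusted p of at least 0.207. Under TPM scaling the log2 fold change turned to -0.0066 for Pdk3, -0.0075 for Pdhb and -0.0023 for Dlat. When 1 library was left out it ranged from -0.011 to 0.074 for Pdk3, from -0.0056 to 0.041 for Pdhb, from -0.027 to 0.066 for Dlat, from -0.0023 to 0.11 for Pdhx and from -0.15 to 0.016 for Pdp1. Pdk1 (0.085 to 0.15), Pdk2 (0.17 to 0.40), Pdp2 (-0.35 to -0.19) and Pdha1 (-0.073 to -0.025) kept their signs. From 4 genes called over all genes, the count was 1 without a filter, 7 by limma-voom and 3 or 4 when 1 library was left out. With reads not divided by length, kinase over the mean of Pdha1 and Pdhb differed by 0.188 (PIO minus control) in place of 0.111, and phosphatase over kinase by -0.0333 in place of -0.0549; the scale itself changes there. With the replicate number as a block 3 genes were called and none of the 9. Same-numbered libraries did not deviate together (correlations -0.0682, 0.0277 and 0.0776), so the numbers were not taken as pairs. Pdp1 had the fewest reads.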
